A study of Mus musculus with 27 samples.

Results

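Hair shaft cortex cells were chosen by their own keratin UMIs from 2 single-cell libraries of mouse back skin. A cell entered the set when it had at least 500 genes, at least 1000 unique molecular identifiers (UMIs, each standing for 1 captured transcript) and under 10% mitochondrial UMIs, when the hair keratins Krt31, Krt33a, Krt33b, Krt34, Krt35, Krt81, Krt83, Krt85 and Krt86 together made up at least 0.2% of its UMIs, and when the inner root sheath keratins Krt25, Krt27, Krt28, Krt71 and Krt73 stayed under 0.3%. Of 28373 cells that passed the quality limits, 465 met the rule. They were 334 of 14458 cells in mouse 1 (2.31%, exact binomial 95% interval 2.07 to 2.57%) and 131 of 13915 in mouse 2 (0.941%, 0.788 to 1.12%). No test of the difference between the mice was made, since each is a single library of the same group.

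The series as a whole asks how hair follicle stem cells (HFSCs) leave a state of mixed identity, and it combines cultured HFSCs, Rxra knockouts and factor binding data with a reference of normal skin. The cells described here are that reference: back skin of 2 untreated wild-type mice at AnaVI, the full-growth stage of the hair cycle (postnatal day 32), with 1 10x 3' library per mouse. The study's methods state that cells negative for CD45, CD31, CD140a and CD117 were enriched by sorting, so blood, vessel and CD140a+ dermal cells and CD117+ melanocytes should be depleted. The strain of these mice is not given in the labels. With 2 mice, p-values set differences against the spread between these 2 libraries alone.

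The cortex is the bulk of the hair shaft. Its cells arise from dividing matrix cells at the base of the follicle, leave the cell cycle, and fill first with hair keratins and then with keratin-associated proteins, which are cross-linked around the keratin filaments before the cell hardens and dies. Hoxc13 encodes a homeodomain factor needed for hair keratin expression, and LEF1, the DNA-binding partner of beta-catenin, marks the precortex. The inner root sheath (IRS) grows from the same matrix as a stiff sleeve around the shaft and depends on Gata3.

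The label was checked against Krt35, Krt85, Hoxc13 and Lef1. Krt85 was not analysed here, so 3 of the 4 markers could be read, and 8 of the 9 hair keratins. Krt35 is part of the rule, so its presence is no finding. Hoxc13 and Lef1 are not. With every cell thinned to 3000 UMIs, Hoxc13 was found in 73.9% of cortex cells of mouse 1 and 82.3% of mouse 2, against 4.38% and 5.00% of collagen-high cells, in which 3 collagen genes make up at least 1% of UMIs and which should lack the gene. Unthinned, it was found in 96.4% and 96.9% of cortex cells (median 11424.5 and 13286 UMIs per cell) and in 11.6% and 15.9% of collagen-high cells (median 9179 and 11852 UMIs). Lef1 was found in 85.9% and 89.5% of thinned cortex cells and in 11.3% and 12.8% of collagen-high cells. Both markers were thus far above their level in collagen-high cells. In thinned cells of the matrix class, defined below in part by Lef1, Hoxc13 was found in 41.8% and 39.4% and Lef1 in 77.5% and 74.9%. Since the matrix class requires Lef1, this comparison cannot show how well Lef1 separates cortex from matrix cells.

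Krt35 supplied most of the hair keratin. It gave 94.4% of the hair keratin UMIs of cortex cells in mouse 1 and 88.7% in mouse 2, was found in 334 of 334 and 130 of 131 cells, and stood at 5613 and 5204 CPM (UMIs of the gene scaled to a total of 1000000 UMIs, here UMIs of all genes). The gene lies at chr11:100092193-100096241 on the minus strand (GRCm38). In matrix cells it stood at 124 and 91.0 CPM, in the IRS class at 25.1 and 15.3, and in collagen-high cells at 41.3 and 22.3 (12 and 9 cortex cells are collagen-high themselves). The rule keeps cells with more hair keratin out of the matrix and IRS classes, so these levels are given as a description. Krt86, a type II keratin, gave 663 and 279 UMIs, or 2.78% and 2.63% of the hair keratin UMIs. Krt81, Krt83 and Krt86 are close copies of each other, as are Krt33a and Krt33b, and reads may be split between them.

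The hair keratin share reached 1.98% of UMIs in mouse 1 and 2.82% in mouse 2, with medians of 0.463% and 0.403%. No cell reached 5%. The values thinned out gradually across the limit: the nearest cells inside stood at 0.2014% and 0.2038%, the nearest outside at 0.1993% and 0.1956%, and a further 136 and 73 cells fell between 0.1% and 0.2%.

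**Figure D1:**
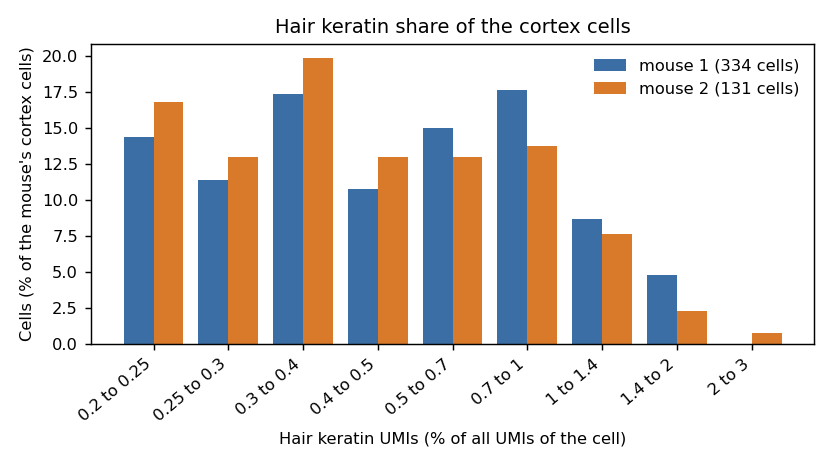
Hair keratin share of the cortex cells of each mouse, in bins of the percentage of a cell's UMIs (x axis) against the percentage of that mouse's cortex cells (y axis). Both mice hold most cells below 1%, with 45 cells of mouse 1 and 14 of mouse 2 at 1% or more.

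Keratins of the later shaft were held by few cells. Krt31 had 295 UMIs in 17 cells of mouse 1 and 352 UMIs in 7 cells of mouse 2, and 5 cells held 79.0% and 99.4% of them. Krt33a had 109 and 227 UMIs, of which 5 cells held 82.6% and 97.4%. Krt83 was more widely spread at low counts, with 189 UMIs in 88 cells and 297 UMIs in 29 cells. Krt34 had no UMI in either mouse, and Krt33b had 0 and 8. Cells with 10 or more UMIs of hair keratins other than Krt35, Krt86 included, numbered 18 and 10, and their median Krt35 share was 0.670% and 0.623% of UMIs, against 0.429% and 0.359% in the rest. These cells also held more UMIs in all, with medians of 15403.5 and 20782 against 11030 and 13030.

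Among the 57 keratin-associated protein genes measured, 3 made up nearly all the signal. Krtap8-1 and Krtap7-1 encode small proteins rich in glycine and tyrosine, and Krtap11-1 a cysteine-rich one. Krtap8-1 gave 1475 UMIs in 84 cells and 693 UMIs in 39 cells, Krtap7-1 gave 930 in 54 and 395 in 25, and Krtap11-1 gave 194 in 22 and 248 in 18. A few cells carried much of this as well, since the top 5 cells held 63.1% and 63.9% of the Krtap8-1 UMIs. Krtap15 reached 75 and 19 UMIs, and Krtap3-3 20 and 5.

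At 3 or more UMIs, Krtap8-1 was found in 48 cortex cells of mouse 1 (14.4%) and 24 of mouse 2 (18.3%), against 0.277% and 0.323% of collagen-high cells. Krtap7-1 passed that mark in 30 and 16 cells, of which 80% and 87.5% also passed it for Krtap8-1. Krtap11-1 did so in 11 and 11 cells, with Krtap8-1 in 81.8% of them in each mouse, and Krt31 in 11 and 5 cells, with Krtap8-1 in 81.8% and 100%. The reverse did not hold: of the Krtap8-1 cells, 50% and 58.3% passed for Krtap7-1, 18.8% and 37.5% for Krtap11-1, and 18.8% and 20.8% for Krt31. Hephl1 passed in 18 and 9 cells, with Krtap8-1 in 72.2% and 66.7% of them, and Krt36 in 18 and 5 cells, with Krtap8-1 in 44.4% and 100%. Most Krtap7-1, Krtap11-1, Krt31 and Hephl1 cells were thus Krtap8-1 cells too, while in mouse 1 most Krt36 cells were not. Krt31 is itself a gene of the rule. Cells with more UMIs pass such a mark more easily, and the part of depth in this nesting was not tested.

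The promoters of 4 shaft genes are shown because all 4 carry a TATA box at nearly the same distance from the start. Each line gives the 250 bases before the RefSeq start (GRCm38.p6), 5' to 3' on the strand of the gene. Capitals mark TATAAA (either strand) and CTTTGA, a core form recognised by LEF1 and TCF factors (either strand). The related form CTTTGT was not searched for and stays in lower case where it occurs, as in Krtap8-1 and Mt4. Krtap8-1 is at chr16:89487953-89488202 (minus strand), Krtap11-1 at chr16:89571184-89571433 (minus), Dapl1 at chr2:59484403-59484652 (plus) and Mt4 at chr8:94136954-94137203 (plus).
Krtap8-1: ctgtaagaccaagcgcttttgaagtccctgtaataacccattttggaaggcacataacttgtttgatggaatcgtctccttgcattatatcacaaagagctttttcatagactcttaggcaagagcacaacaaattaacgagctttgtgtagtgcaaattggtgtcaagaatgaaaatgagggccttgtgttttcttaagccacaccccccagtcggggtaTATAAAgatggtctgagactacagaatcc
Krtap11-1: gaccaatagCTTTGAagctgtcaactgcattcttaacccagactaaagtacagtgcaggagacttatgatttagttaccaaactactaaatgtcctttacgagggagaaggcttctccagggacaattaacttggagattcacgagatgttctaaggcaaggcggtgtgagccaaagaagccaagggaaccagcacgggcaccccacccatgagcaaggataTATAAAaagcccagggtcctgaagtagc
Dapl1: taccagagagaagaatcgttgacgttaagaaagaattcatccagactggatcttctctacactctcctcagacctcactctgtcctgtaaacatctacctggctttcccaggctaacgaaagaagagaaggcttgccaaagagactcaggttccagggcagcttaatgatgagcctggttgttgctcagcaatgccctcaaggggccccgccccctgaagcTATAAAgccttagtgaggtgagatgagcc
Mt4: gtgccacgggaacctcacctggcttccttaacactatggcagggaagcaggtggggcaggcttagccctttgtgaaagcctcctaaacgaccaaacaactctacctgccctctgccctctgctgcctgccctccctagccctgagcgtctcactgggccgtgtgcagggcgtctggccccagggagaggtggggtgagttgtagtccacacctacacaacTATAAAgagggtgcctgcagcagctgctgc
The first base of TATAAA lies 29 bases before the start in Krtap8-1, 28 in Krtap11-1, 29 in Dapl1 and 30 in Mt4. Of the 18 distinct genes named below as most increased in cortex cells, 13 matched the RefSeq table. TATAAA was present in 9 of these 13, and in 12.4% of all 32851 windows of that length. CTTTGA was present in 1 of the 13, Krtap11-1, and in 13.8% of all windows. These are descriptions of letters in a window, not of binding.

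Other cell types were looked for in the cortex cells by marker lists. All 5 fibroblast markers (Col1a1, Col1a2, Col3a1, Dcn, Lum) were found, at a summed 0.363% and 0.489% of UMIs, against 4.49% and 5.57% in collagen-high cells, which were 44.9% and 48.9% of all cells in spite of the CD140a sort. Melanocyte markers came to 0.00995% and 0.0102% of UMIs, mostly Dct. Immune markers came to 0.00145% and 0.00260%, endothelial markers to 0.00177% in each mouse, and Schwann cell markers to 0.000648% and 0.00111%. Of the IRS list, 6 of 9 measured genes were found in at least 10% of cortex cells, at a summed 0.0560% and 0.0538% against 0.969% and 0.863% in the IRS class. Of the cuticle keratins, Krt40 had no UMI, Krt82 had 5 and 0, Krt39 5 and 1, and Krt32 21 and 4. Krt32 stood at 5.24 and 2.22 CPM of all UMIs, against 0.844 and 0.126 in matrix cells. The cuticle marker S100a3 was found in 73.7% and 69.5% of cortex cells, at 644 and 390 CPM against 131 and 79.0 in matrix cells. Sox21, another, was found in 39.8% and 35.9% of cortex cells. Cuticle cells were not separated from cortex cells. Scrublet marked 28 (8.38%) and 3 (2.29%) cortex cells as doublets, against 5.76% and 2.21% of all cells. The part of free RNA and doublets in the results below was not tested beyond leaving such cells out.

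The first question was how cortex cells differ from the matrix they arise from. The matrix class held 1997 and 1601 cells with at least 1 UMI each of Lef1 and Msx2, without hair, IRS or epidermal keratins above the limits and with the collagen genes under 0.5%. UMIs were summed per mouse and class and tested with edgeR's quasi-likelihood test, with Benjamini-Hochberg adjustment over all genes. A gene was called at an adjusted p below 0.01 and a log2 fold change beyond 1 in either direction. The classes were drawn from these same cells by keratin UMIs, so a p-value applies only to classes so drawn. The model had no mouse term, so the p-value sets a gene's class difference against the spread between the mice within classes. From here on, levels in CPM are UMIs per 1000000 after TMM scaling of the libraries, without the 14 keratins of the rule, unless stated otherwise. Levels are compared between classes for a gene, not between genes.

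Of 13927 genes tested, 414 were higher (2.97%) and 797 lower (5.72%) in cortex cells. With the mouse as a block, 660 were higher and 1114 lower. Dapl1, a gene related to death-associated protein, stood at 3789 and 3208 CPM in cortex cells against 190 and 108 in matrix cells (log2 fold change 4.55 ± 0.36 SE, adjusted p = 0.000162). Krtap7-1 stood at 251 and 230 against 3.85 and 1.99 (6.37 ± 0.31). Krtap11-1 stood at 52.5 and 145 against 0.159 and 0.306, the latter resting on 4 and 8 UMIs. The cortex values of both mice lay above the matrix values of both mice for each of these genes, although the mice themselves were well apart for Krtap11-1.

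Dsg4, Selenbp1 and Mt4 were higher as well. Dsg4, the desmoglein whose loss makes hair brittle, stood at 173 and 193 CPM in cortex cells and at 11.2 and 11.3 in matrix cells (log2 fold change 4.02 ± 0.17, adjusted p = 3.62e-05). Selenbp1, a methanethiol oxidase, stood at 422 and 522 against 19.8 and 17.9 (4.64 ± 0.26). Mt4, a metallothionein of stratified epithelia, stood at 1102 and 1052 against 95.1 and 55.5 (3.84 ± 0.41). These differences were many times the gap between the mice. Alox12 (12-lipoxygenase), Dclk3 (a doublecortin-like kinase), Cited4 (a transcriptional co-regulator) and the unnamed gene Gm49425 were the other genes selected by the rule, with log2 fold changes of 3.96, 3.35, 3.21 and 3.84. Gm49425 lies at chr15:101515920-101517261 between Krt83 and Krt84, and whether its UMIs come partly from a keratin transcript was not tested.

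**Figure D2:**
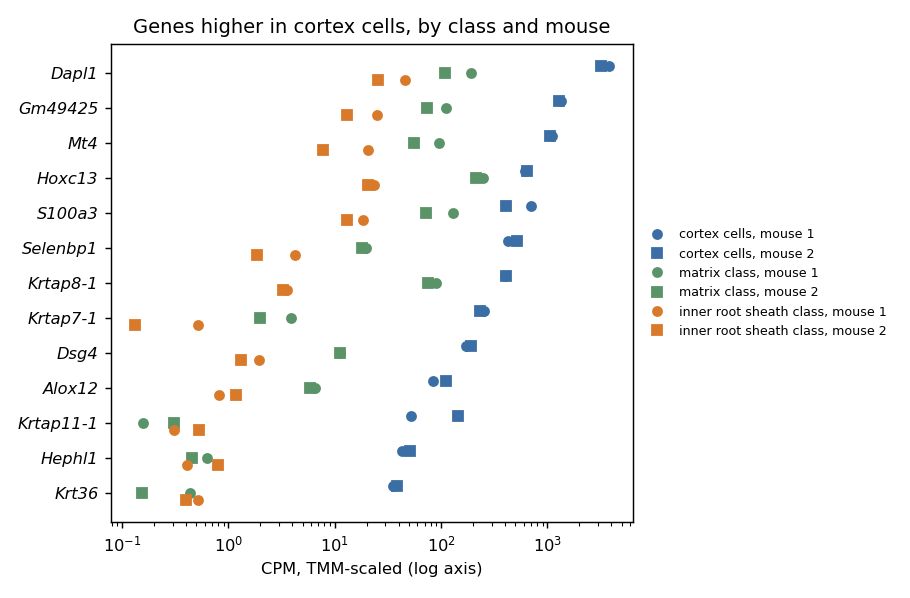
Level of 13 genes (CPM, TMM-scaled, log axis) in cortex cells, the matrix class and the IRS class, with circles for mouse 1 and squares for mouse 2. The cortex value of each mouse lies to the right of both other classes for all 13 genes, Dapl1 at 3789 and 3208 among them.

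The genes lowest relative to matrix included Foxq1 and Krt75, markers of the medulla, and 3 cell cycle genes. Foxq1, the forkhead factor of the medulla, stood at 11.9 and 4.08 CPM against 111 and 67.7 (log2 fold change -3.30 ± 0.38, adjusted p = 0.000728), and Krt75, a keratin of medulla and companion layer, at 20.3 and 12.3 against 117 and 99.5 (-2.66 ± 0.22). All 5 medulla markers were lower (Foxq1, Krt75, Krt17, Tchh, Padi3). Unthinned, the matrix class held Foxq1 in 31.7% and 24.1% of its cells and Krt75 in 43.0% and 39.7%. Medulla cells were not separated from that class, so their part in these differences was not tested. Krt23, Jag2 and Tspan18 had log2 fold changes of -2.85, -2.70 and -3.21, and the cell cycle genes Hist1h1a, Uhrf1 and Kif15 of -3.22, -2.74 and -2.68. Ptgds (-3.14) and Col23a1 (-2.77) completed the list. The direction of Ptgds turned when matrix cells were held to collagen under 0.1%, a class with 3 cells in mouse 2. Shh, the matrix signal, was at 0.811 and 1.75 against 17.6 and 26.6. Krt5 and Krt14, keratins of the basal layer, were lower as well (-1.87 and -1.23).

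The second question was how the cortex differs from the IRS class, which held 915 and 564 cells. Unthinned, Mki67 was found in 68.9% and 77.5% of these cells, near the 73.9% and 78.9% of matrix cells. The class is thus not one of hardened cells alone, and stage was not matched between cortex and IRS cells. Of 13934 genes tested, 449 were higher (3.22%) and 722 lower (5.18%) in cortex cells, and with the mouse as a block 641 and 962. Krtap8-1 stood at 399 and 404 CPM in cortex cells against 3.59 and 3.30 in the IRS class (log2 fold change 6.86 ± 0.21, adjusted p = 2.34e-06), and at 89.9 and 74.6 in matrix cells (2.29 ± 0.16). It was thus present in the matrix class at a higher level than in the IRS. The matrix class takes cells up to just under the rule's 0.2% of hair keratins, and unthinned Krt35 was found in 37.6% and 30.5% of them. The part of cells just below that limit in this level was not tested. Dapl1, Selenbp1, Dsg4, Alox12, Mt4, Gm49425 and Dclk3 were again among the 10 most increased, with log2 fold changes between 5.72 and 7.23. Krtap7-1 and Krtap11-1 led the list, on 5 and 1 UMIs and on 3 and 4 UMIs in the IRS class. The matrix and IRS comparisons share the cortex samples, so their common genes are no independent evidence.

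Genes lower in the cortex than in the IRS included factors and enzymes of the sheath. Prr9, a proline-rich protein gene, stood at 2.43 and 2.92 CPM against 267 and 259 (log2 fold change -6.66 ± 0.32, adjusted p = 1.46e-05). Gata3, the factor the IRS depends on, stood at 29.2 and 21.6 against 437 and 465 (-4.12 ± 0.19). Pou3f1, a POU domain factor, stood at 9.46 and 16.3 against 307 and 315 (-4.68 ± 0.24). The IRS values of both mice were many times those of the cortex. Crym, Calhm5, Slc39a8, Sult2b1, Ctsc, Nrg3 and Dmkn filled the list, with log2 fold changes from -5.38 to -3.82. Crym binds thyroid hormone, Sult2b1 makes cholesterol sulfate and Ctsc is the protease cathepsin C.

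Transcription factors of the hair lineages separated the cortex from both classes. For this list and those that follow, the shares over all genes were 2.97% called higher and 5.72% lower against matrix. Against the IRS they were 3.22% and 5.18%. Of 23 such factors tested against matrix, 4 were higher (Hoxc13, Foxn1, Ovol1, Sox21) and 6 lower (Bcl11b, Foxq1, Gata3, Lhx2, Nfib, Prdm1), and the list's median log2 fold change was -0.22 against -0.00177 over all genes. Of 25 tested against IRS, 8 were higher (Hoxc13, Lef1, Msx1, Msx2, Ovol1, Runx1, Sox21, Trps1) and 3 lower (Gata3, Lhx2, Nfib), with a median of 0.76 against -0.0166. With the mouse as a block, 5 were lower than in the IRS (Bcl11b and Cux1 in addition), Sox9 was also higher, and Msx1 (log2 fold change 0.97) fell short of the fold limit. Hoxc13 stood at 619 and 645 CPM in cortex cells, 246 and 214 in matrix cells and 23.2 and 20.4 in the IRS (log2 fold changes 1.46 ± 0.15 and 4.85 ± 0.18, adjusted p = 0.000466 and 5.89e-06). The 3 classes did not overlap. Foxn1, the factor missing in nude mice, showed another order: 46.2 and 46.7 in cortex cells, 7.90 and 6.51 in matrix cells, and 49.4 and 56.5 in the IRS (2.69 ± 0.17, and -0.19 ± 0.16 with adjusted p = 0.496). Lef1 stood at 1005 and 1410, 726 and 734, and 166 and 177, and its difference from matrix was not read because it chose that class.

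Sox21, a factor of the hair cuticle, was at 104 and 76.4 CPM in cortex cells, 48.9 and 39.0 in matrix cells and 29.4 and 26.1 in the IRS, but its direction turned against both classes when only cells with at least 1% hair keratins were used (log2 fold changes -1.52 and -0.85), and so did that of Msx1 against the IRS (-0.70). Prdm1 stood at 4.33 and 7.59 in cortex cells, 49.4 and 42.9 in matrix cells, and 2.87 and 2.24 in the IRS. Nfib, a stem cell and matrix factor, stood at 213 and 219, 640 and 851, and 486 and 616. Prdm1 was thus low in both the cortex and the IRS class, and Nfib lowest in the cortex.

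The Notch pathway signals between neighbouring cells through ligands of the Jagged and Delta families. Against matrix, 5 of its 9 tested genes were higher and 1 lower, with a median log2 fold change of 1.10. The receptor Notch1 stood at 416 and 500 CPM in cortex cells against 160 and 180 in matrix cells (1.43 ± 0.17), Notch3 was higher too, and the targets Hes1 and Heyl rose by 1.34 and 2.64 on the log2 scale. The ligands moved apart: Jag1 stood at 333 and 431 against 162 and 200 (1.08 ± 0.18), and Jag2 at 11.9 and 12.3 against 73.7 and 82.2 (-2.70 ± 0.19). Against the IRS, Jag1, Hes1 and Heyl were higher and Notch2 lower, with Jag1 at 75.9 and 80.4 in the IRS (2.29 ± 0.19).

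WNT signalling through beta-catenin and LEF1 drives the precortex. Against matrix, 2.97% of all genes were called higher and 5.72% lower. Of 17 genes of the WNT list, 2 were higher (the ligand Wnt10a and the receptor Fzd6) and 3 lower (the ligand Wnt5a and the receptor-linked Lgr5 and Lrp4). Against the IRS, 7 were higher and 2 lower (Nkd2 and Wnt11). Wnt10a stood at 77.1 and 66.5 CPM in cortex cells, 26.3 and 18.5 in matrix cells and 7.48 and 3.16 in the IRS (log2 fold changes 1.69 ± 0.29 and 3.72 ± 0.35). Wnt3 stood at 23.5 and 32.7, 18.8 and 18.4, and 1.33 and 1.98, and Wnt10b was also higher than in the IRS. Axin2, a target of the pathway, stood at 42.2 and 41.4 in cortex cells, close to 39.5 and 38.6 in matrix cells (0.10 ± 0.14, adjusted p = 0.661) and above 21.7 and 19.9 in the IRS (1.01 ± 0.15, and 0.999 with the mouse as a block, short of the fold limit). The feedback inhibitors split against the IRS, with Nkd1 and Notum higher (1.57 and 3.49) and Nkd2 at 1.89 and 2.92 against 43.8 and 43.4.

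BMP signals promote shaft differentiation. Against the IRS, 7 of 15 genes were higher and 0 lower by edgeR and by DESeq2 (at an unadjusted p under 0.05, 8 and 0): the ligands Bmp4 and Bmp7, the targets Id1 and Id2, and the inhibitors Smad6, Smad7 and Bambi. Over all genes, edgeR called 3.22% higher and 5.18% lower than in the IRS. The list's median log2 fold change was 1.09. Bambi stood at 146 and 124 CPM against 33.9 and 31.9 (2.04 ± 0.21). Against matrix, Bmp8a was higher (13.0 and 16.9 against 0.794 and 0.804) and Bmp2 lower (2.70 and 1.17 against 22 and 16.3). Of the retinoid genes, which the series is about, 0 of 17 were called against matrix by edgeR (7 had an unadjusted p under 0.05, or 41.2% against 34.5% of all genes, and DESeq2 called 2 lower) and 2 were higher than in the IRS: Stra6, the retinol transporter, at 79.2 and 76.4 against 14.4 and 10.7 (2.62 ± 0.26), and Aldh1a3, which makes retinoic acid, at 73.8 and 121 against 13.8 and 9.75 (3.01 ± 0.27). Neither was higher than in matrix cells by the call rule, where Stra6 stood at 48.3 and 30.8 and Aldh1a3 at 195 and 210 (-1.08 ± 0.24, adjusted p = 0.0156). With the mouse as a block, 3 retinoid genes were lower than in matrix, Aldh1a3 (adjusted p = 1.98e-05), Crabp1 and Rarb, and against the IRS Crabp1 was called higher and Lrat and Rarb lower. The call of 0 of 17 against matrix thus holds only without the block.

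**Figure D3:**
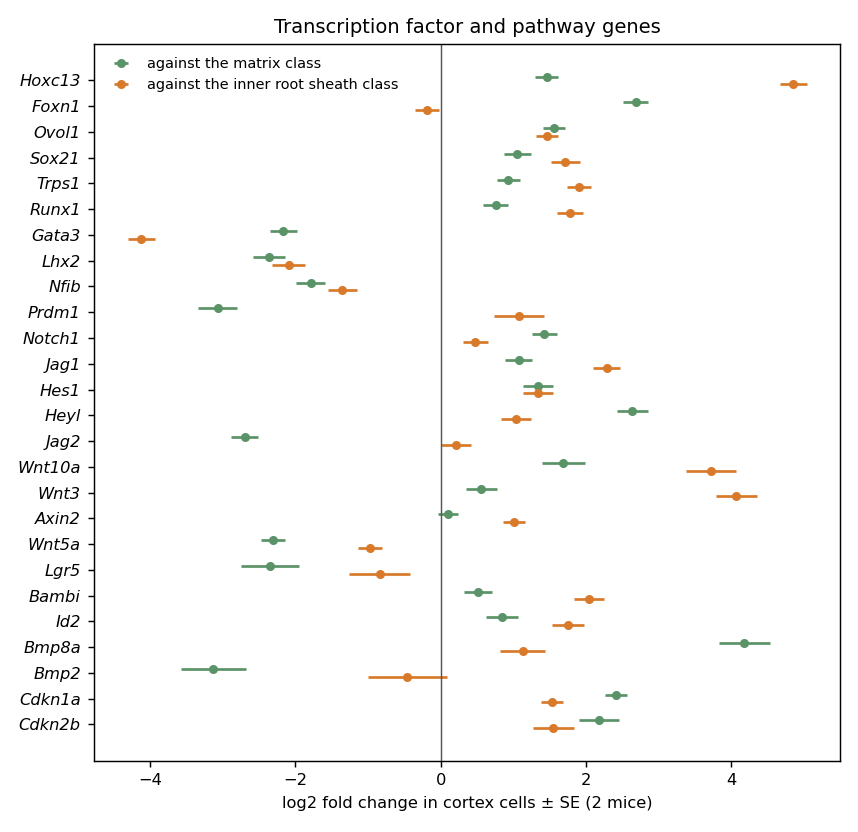
Log2 fold change in cortex cells, with its SE as bars, against the matrix class (green) and against the IRS class (orange) for 26 transcription factor and pathway genes. Hoxc13 lies to the right in both (1.46 and 4.85) and Gata3 to the left in both (-2.17 and -4.12), while Foxn1 and Prdm1 lie on opposite sides of 0 in the 2 comparisons, with only the difference from matrix called for each. The Foxn1 value against the IRS turned to 0.38 and 0.78 with hair keratins at 0.5% and 1%.

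Genes of cohesion and hardening followed. Of 16 junction genes, 5 were higher than in matrix (Cdh1, Dsg4, Dsp, Jup, Pkp2) and 2 lower (Dsg2, Dsg3). Dsp, the desmosome linker to keratin, stood at 793 and 875 CPM against 365 and 370 (log2 fold change 1.18 ± 0.16). Against the IRS, Dsg4 and Cdh3 were higher and Dsc1, Dsg1a, Evpl and Ppl lower. Cortex and IRS thus differed in which desmogleins they held: Dsg4 stood at 1.95 and 1.32 in the IRS and Dsg1a at 154 and 178 there, against 42.7 and 37.9 in cortex cells. Of 6 cross-linking and citrullinating enzymes, Padi4 and Tgm3 were higher and Padi3 lower than in matrix, with Padi4 at 36.0 and 43.8 against 14.6 and 10.5.

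Of 12 cysteine and glutathione genes, 0 were higher than in matrix by edgeR, by DESeq2 or at an unadjusted p under 0.05, and 5 were lower (Cbs, Gclc, Gclm, Gpx1, Gsr), with Gclm, a subunit of the glutathione-making ligase, at 47.9 and 40.8 CPM against 134 and 126 (log2 fold change -1.54 ± 0.16). Over all genes, 2.97% were called higher and 5.72% lower than in matrix, so 0 of 12 higher is near that share. Against the IRS, Txnrd1 (thioredoxin reductase) was higher and Gclm lower. Of 7 genes of nucleus and organelle removal, the exonuclease gene Trex2 was higher than in matrix, on 22 and 7 cortex UMIs. Cbs was lower and Trex2 higher than in the IRS as well when the mouse was a block.

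Cell cycle genes were low. All 20 mitosis genes were lower than in matrix and in the IRS, with median log2 fold changes of -2.03 and -2.25, and of 20 DNA replication genes 19 and 17 were lower. Mki67 stood at 77.1 and 81.7 CPM in cortex cells against 391 and 390 in matrix cells (-2.30 ± 0.16, adjusted p = 0.000125). Mcm2 was the exception against matrix (-1.17 ± 0.24, adjusted p = 0.0112), and it passed with the mouse as a block (6.41e-05). Summed over the list, mitosis genes gave 714 and 660 CPM of all UMIs in cortex cells, 3524 and 2956 in matrix cells and 3652 and 3551 in the IRS. Collagen-high cells stood at 432 and 507. The CDK inhibitor genes Cdkn1a (p21) and Cdkn2b (p15) went the other way: Cdkn1a stood at 347 and 397 in cortex cells against 71.3 and 68.0 in matrix cells (2.42 ± 0.15) and 133 and 124 in the IRS (1.53 ± 0.15), and Cdkn2b had log2 fold changes of 2.18 and 1.55. Cdkn2c was lower than in either class (-1.23 and -1.73), and with the mouse as a block Cdkn2d was too.

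**Figure D4:**
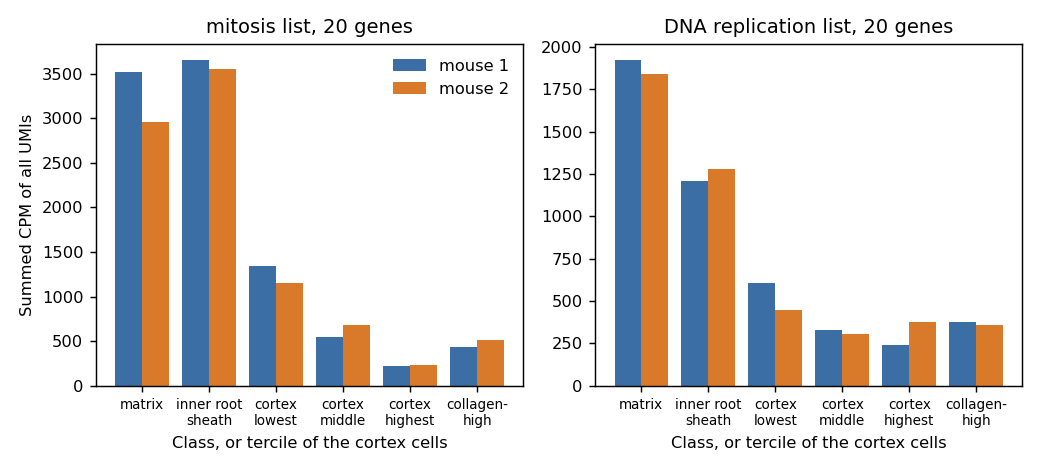
Summed UMIs of 20 mitosis genes (left) and 20 DNA replication genes (right), as CPM of all UMIs, in the matrix class, the IRS class, the terciles of cortex cells by hair keratin share and collagen-high cells, with a bar for each mouse. Mitosis UMIs fall from the lowest to the highest tercile in both mice, while DNA replication UMIs of mouse 2 do not fall steadily.

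How cortex cells vary among themselves was read by ranking each mouse's cells by hair keratin share into terciles of 112, 111 and 111 cells and of 44, 44 and 43 cells, with median shares of 0.260%, 0.464% and 0.908% and of 0.251%, 0.404% and 0.829%. The ranking used hair keratins, and all other genes are measured in the same cells. Of 8930 genes tested between the highest and lowest tercile, 44 were higher (0.493%) and 28 lower (0.314%). With the mouse as a block these counts were 105 and 136. The shaft genes were the most increased and mitosis genes the most decreased.

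Krtap8-1 stood at 60.8 and 85.5 CPM in the lowest tercile, 97.6 and 111 in the middle and 1043 and 928 in the highest (log2 fold change 3.79 ± 0.22, adjusted p = 1.37e-06). By cells with 3 or more UMIs, the numbers were 5, 12 and 31 in mouse 1 and 2, 4 and 18 in mouse 2. Krtap7-1 stood at 7.69 and 13.1, 123 and 65.0, and 628 and 562 (5.95 ± 0.35). Both genes were higher in each step, and most of the rise lay between the middle and the highest tercile. Krtap11-1 stood at 0.699 and 9.86, 12.3 and 18.8, and 146 and 372. Krt36, a hair keratin outside the rule, had 3 and 0 UMIs in the lowest tercile, 27 and 11 in the middle and 102 and 55 in the highest. Hephl1, a copper-dependent ferroxidase linked to hair shape, had 2 and 0, 52 and 19, and 106 and 69 UMIs. Both were called by edgeR (adjusted p = 2.25e-05 and 1.14e-05), DESeq2 gave neither an adjusted p, and no fold is given since their lowest tercile was nearly empty.

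More widely expressed genes rose too. Hspb1, a small heat shock protein, stood at 168 and 127 CPM, 370 and 375, and 1289 and 1175 (log2 fold change 3.05 ± 0.19, adjusted p = 2.42e-06). Dapl1 stood at 1710 and 1226, 3228 and 2417, and 6095 and 5380 (1.96 ± 0.18), and Mt4 at 540 and 314, 878 and 633, and 1789 and 2002 (2.14 ± 0.24). These 3 rose at each step in both mice. Tubb2a (a beta-tubulin), Tagln3, Fam25c and Bicdl2 were also among the 10 most increased, with log2 fold changes of 3.16, 3.22, 3.99 and 4.14. Selenbp1, Gm49425 and S100a3 rose by 1.61, 1.21 and 2.41 on the log2 scale. Of the enzymes, Padi4 went from 17.5 and 19.7 to 54.6 and 62.9 (1.66 ± 0.28) and Tgm3 from 21.7 and 11.5 to 64.5 and 61.2 (1.80 ± 0.31), so 2 of 4 cross-linking genes tested were higher by edgeR. DESeq2 gave none of the 4 an adjusted p.

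Of 23 transcription factors tested between terciles, 0 were called by edgeR's quasi-likelihood test, and 11 had an unadjusted p under 0.05 (47.8%, against 20.7% of all genes). DESeq2 called 0 of the 11 it gave an adjusted p. With the mouse as a block, 3 were called: Foxn1 higher (adjusted p = 0.00171) and Msx1 (0.00367) and Tcf7l2 (0.00284) lower. So few genes were called between terciles without the block that 0 of 23 is near the share over all genes. Hoxc13 stood at 509 and 537 CPM, 596 and 588, and 649 and 701 (log2 fold change 0.37 ± 0.16, adjusted p = 0.217). Lef1 stood at 899 and 1380, 891 and 1404, and 1052 and 1217 (-0.00 ± 0.23, adjusted p = 0.997), with the mice moving in opposite directions. Foxn1 stood at 25.2 and 26.3, 43.8 and 39.3, and 64.5 and 66.1 (1.35 ± 0.25, adjusted p = 0.0117), rising at each step and missing the threshold without the block, and Msx1 at 63.6 and 64.1, 36.1 and 39.3, and 24.8 and 32.2 (-1.20 ± 0.25, adjusted p = 0.0258). Dsg4, Alox12 and Dclk3, far above matrix in the cortex as a whole, were not called between terciles, with log2 fold changes of 0.60 ± 0.19, 0.06 ± 0.29 and 0.30 ± 0.23.

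Mitosis genes fell along the ranking. Of 19 tested, 8 were lower (Birc5, Cdk1, Cenpa, Cenpf, Mki67, Nusap1, Top2a, Ube2c) and 18 had an unadjusted p under 0.05 with a lower value, with a median log2 fold change of -2.29 against -0.0230 over all genes. Ube2c, the E2 enzyme of the anaphase-promoting complex, stood at 217 and 135 CPM, 69.2 and 58.2, and 12.4 and 12.9 (-3.82 ± 0.32, adjusted p = 3.74e-05). Birc5 (survivin) stood at 82.5 and 72.3, 24.6 and 30.8, and 9.10 and 4.83 (-3.35 ± 0.33). Summed mitosis CPM of all UMIs fell from 1348 to 545 to 221 in mouse 1 and from 1150 to 676 to 228 in mouse 2. Cells of the highest tercile were thus below the collagen-high cells in this sum, but not by every share of cells. In thinned cells of mouse 1, a mitosis UMI was found in 64.0%, 52.7% and 39.0% across the terciles, against 43.1% of collagen-high cells. In mouse 2 these shares were 61.0%, 40.5% and 51.2% (exact interval of the last 35.1 to 67.1%, 41 cells), against 44.9%. Unthinned, 3 or more mitosis UMIs were found in 39.6% and 60.5% of the highest tercile, against 26.8% and 40.4% of collagen-high cells. DNA replication sums fell from 606 to 328 to 238 in mouse 1 but went from 448 to 304 to 377 in mouse 2. Of 15 such genes tested, 0 were called by edgeR, near the 0.314% of all genes called lower. At an unadjusted p under 0.05 there were 6 (40%, against 20.7% of all genes), 0 of them higher. Under the block, 14 of the 19 mitosis genes were lower and 1 replication gene, Dut (adjusted p = 0.00349). DESeq2 gave 2 mitosis genes an adjusted p and called both lower, and gave none to the replication genes. Cdkn1a stood at 182 and 293, 330 and 358, and 491 and 474 (1.05 ± 0.22, adjusted p = 0.0251, and 0.000349 with the mouse as a block). The block also called Cdkn2b, Bambi, Wnt10a and Txn1 higher, each from a list with no call without it.

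Cdca8, Hist1h2ap and Pclaf, also cell cycle genes, and the amino acid transporter gene Slc16a10 completed the 10 most decreased, with log2 fold changes of -2.62, -2.50, -2.24 and -2.18. Keratins of less advanced cells fell as well: Krt17 went from 254 and 482 to 97.6 and 64.5 CPM (-2.12 ± 0.32, adjusted p = 0.00316) and Krt5 from 198 and 174 to 73.6 and 61.2 (-1.45 ± 0.21). The 5 fibroblast markers all had negative log2 fold changes across terciles, with a median of -0.83. Of these, 0 were called by edgeR or DESeq2, near the share over all genes, and 1 (Dcn) with the mouse as a block. At an unadjusted p under 0.05 there were 4 (80%, against 20.7% of all genes). Their part in the result was not tested. The IRS and medulla marker Tchh was uneven, at 95.7 and 8.22, 79.9 and 245, and 6.62 and 8.06.

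**Figure D5:**
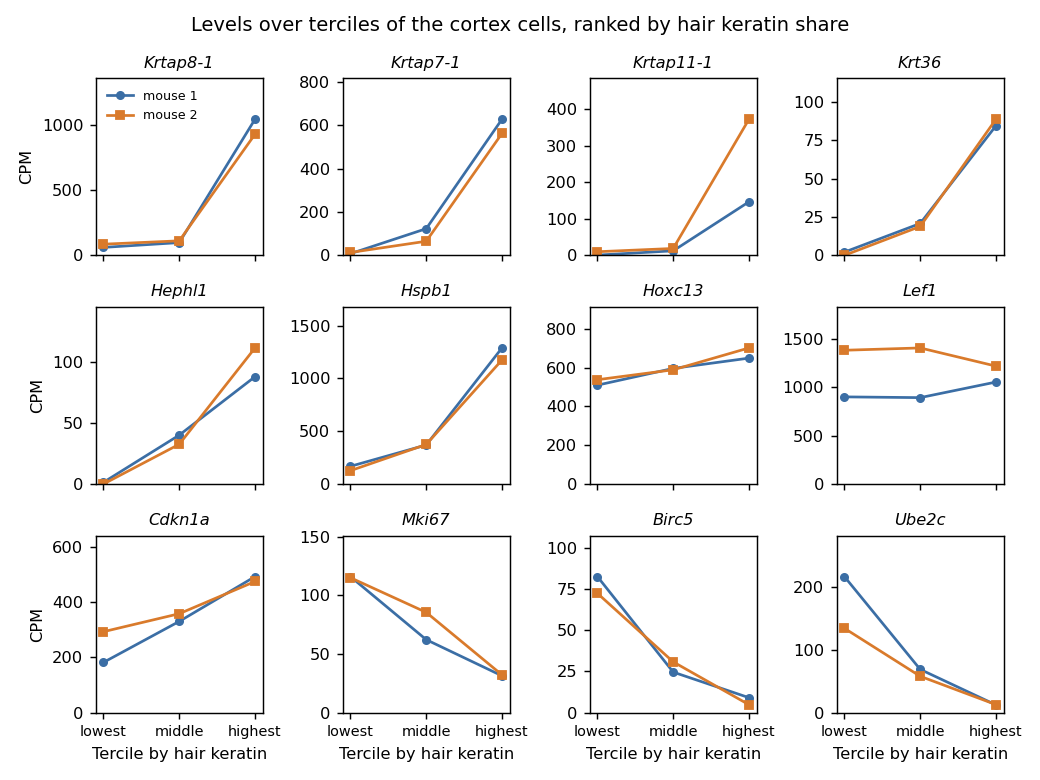
Level of 12 genes (CPM, TMM-scaled, linear axes from 0) in the lowest, middle and highest tercile of cortex cells ranked by hair keratin share, with a line for each mouse. Krtap8-1, Krtap7-1, Krtap11-1, Krt36, Hephl1 and Hspb1 rise, Mki67, Birc5 and Ube2c fall, and Hoxc13, Lef1 and Cdkn1a, also shown, did not pass the threshold without the block, which Cdkn1a passed with it.

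Finally, the same rule was applied to HFSCs sorted from the same mice and grown in 3D culture, in media that differed in BMP, R-spondin (Rspo, which strengthens WNT signals), retinoids and other additions. The cultured libraries read here held 449 and 208 barcodes, far fewer than the cultured cells the paper mapped. Of 262 and 94 kept cells, 0 met the rule, Krt35 had no UMI, and all hair keratins together had 2 and 3 UMIs. The paper showed HOXC13 protein and hair shaft reporter activity in differentiated cultures, which these RNA counts do not measure. The BMP condition of mouse 1 held 122 cells, for which a count of 0 allows a share of up to 2.46% (taking 3 counts as the limit, where the exact binomial bound is 2.98%), and Rspo+BMP held 102 (up to 2.94%). In mouse 2, Rspo+BMP held 35 cells (up to 8.57%), Rspo+BMP+RARi 25 (up to 12%) and BMP 14 (up to 21.4%). Hoxc13 was nevertheless found: 189 UMIs in the BMP cells and 96 in the Rspo+BMP cells of mouse 1, and 22, 38 and 42 UMIs in the BMP, Rspo+BMP and Rspo+BMP+RARi cells of mouse 2. The other media held at most 10 cells per mouse. These cells were assigned where a hashtag held at least 70% of the hashtag counts. At 90%, 12 BMP and 20 Rspo+BMP cells of mouse 1 were left, with limits of 25% and 15% and with 17 and 14 Hoxc13 UMIs, and again 0 met the rule. Intervals and limits of this kind cover counting error only.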

How the data were processed

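The authors deposited UMI counts per gene and cell for 2 skin libraries and 2 libraries of cultured HFSCs, 1 per mouse, made with 10x 3' v3 chemistry, Cell Ranger (7.0.1 in the submitters' processing notes) and GRCm38. The ambient RNA and doublet removal named in the study's methods is not in these values. Bulk RNA-seq, ATAC-seq and CUT&RUN libraries were not used. Kept cells held 139504947 and 159290929 UMIs in total and cortex cells 4011254 and 1805012. The skin libraries held 16521 and 16068 barcodes and shared 62, none of them a cortex cell.

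Members, classes and gene lists were chosen with earlier results of these data known. Counts were summed per mouse and class and fitted with edgeR 4.0.16 in R 4.3.3 (TMM, filterByExpr, quasi-likelihood test, no block) over 3 classes or 3 terciles in 2 mice. The 14 keratins of the rule were left out, as were, against matrix, the genes that chose that class. The code was tested on simulated data. Beside the genes of the lists, the rule names up to 10 called genes a direction, ranked by log2 fold change, that reach 50 CPM in the higher class of both mice and whose classes do not overlap. Other genes named as examples were chosen from the lists or after their values were seen. Both classes of a comparison come from the same mouse, and deviations of the same mouse correlated at 0.312, 0.257 and 0.519 between classes and 0.253, 0.167 and 0.155 between terciles, so the samples are paired. The classes departed from the plan at 2 points after cell counts were seen. A collagen limit of 0.1% left 308 and 3 matrix cells, so 0.5% was used, and no cell reached the planned 5% limit of hair keratins, so terciles were used. Scrublet (scanpy 1.11.5) marked doublets, which were kept unless stated. Cultured cells were assigned by a hashtag with at least 70% of at least 20 counts. Exact intervals are Clopper-Pearson at 95%.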

Additional observations from a re-analysis of the deposited data

How the results depend on the processing

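For 171 called gene results, 2285 values under other settings were compared. Of these, 2207 kept their direction and, where a threshold was applied, their side of it. The 2207 include 171 values without each replicate in turn, which were held to direction only. They also include 171 at an adjusted p below 0.05 with no fold limit, which a called gene cannot fail. A further 74 kept the direction only, and 4 turned. Those 4 were Sox21 against matrix (-1.52) and against the IRS (-0.85) and Msx1 against the IRS (-0.70) with hair keratins at least 1%, and Ptgds against matrix (0.27) with matrix collagen under 0.1%. The cause was not tested. Of 508 values for 40 results that were not called, 391 kept their direction and, where a threshold was applied, stayed uncalled. Another 103 passed the threshold and 14 turned. Lef1 between terciles turned to 0.0384 with no filter on low counts, 0.0336 with the replicate block, 0.50 with at least 1000 genes and under 5% mitochondrial UMIs, and 0.22 with cells at 1% and over against under 1%, and ranged from -0.18 to 0.23 without either replicate. Alox12 between terciles turned to -0.0004 with collagen under 0.5% in all cells and ranged from -0.48 to 0.57 without either replicate. Against the IRS, Foxn1 turned to 0.3838 and Bmp2 to 0.0511 with hair keratins at least 0.5%, and Foxn1 to 0.7769 Jag2 to -0.88 and Crabp1 to -0.95 at 1%, and Bmp2 ranged from -1.68 to 0.37 without either replicate. Axin2 against matrix turned to -0.0621 with 2 UMIs each of Lef1 and Msx2. Without either replicate in turn there are no residual degrees of freedom, so only gene values and no counts of calls were obtained, and all 171 called results kept their direction.

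At an adjusted p below 0.05 with no fold limit, the counts called were 2894 against matrix (1199 higher, 1695 lower), 2403 against the IRS (1019 and 1384) and 288 between terciles (155 and 133). With the replicate block, 660 genes were higher than in matrix and 241 were called between terciles (105 higher, 136 lower), and 99.3% and 100% of the genes called without it remained. Msx1 and Axin2 against the IRS lost their call with it. It changed no other call of a called gene named in the text. The main calls it added are given with the results. Other tercile counts were 296 with no filter (129 and 167), 196 under the stricter cell limits (141 lower), 113 for 1% and over against under 1% (75 higher) and 45 lower with collagen under 0.5% in all cells. The share higher among tercile calls was 61.1%, against 43.6% with no filter or with the block and 28.1% under the stricter cell limits. DESeq2 called 53 genes between terciles, with 6925 adjusted p-values missing, and 40 of the 72 were among them. With hair keratins at least 1%, 64.7% of the calls against matrix remained, and the median of all genes moved to -0.22.

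The share of cortex cells was 2.07% and 0.749% under the stricter cell limits, 3.25% and 1.47% at a keratin limit of 0.1%, 1.07% and 0.352% at 0.5%, and 0.311% and 0.101% at 1%. With 2 mice and 131 cells in the smaller, genes of few UMIs limit what can be read between terciles.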
